A study of Homo sapiens with 12 samples.

Results

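Proteasome subunit genes were followed through a knockdown of the transcriptional coactivators YAP and TAZ in A549 cells, an established human lung adenocarcinoma line. The genes were taken by name alone: every protein-coding gene in the GENCODE annotation whose symbol is PSMA, PSMB, PSMC, PSMD or PSME followed by digits, which gave 43 of the 60617 gene identifiers in the tables. Of these 43 genes, 41 passed the filter on low counts and stood among the 21581 genes tested, and all 3 immunoproteasome subunits were among the 41. Bulk RNA was sequenced 24 h after siRNA transfection in 3 groups of 4 libraries each: cells given a first combination of siRNAs against YAP and TAZ (siYAP/TAZ#1), cells given a second combination (siYAP/TAZ#2), and cells given control siRNA (siCo). The 12 libraries share the same cell line and the same time after transfection, and each set of 4 is called biological replicates in the series, with no word on separate cultures. Both combinations were compared with the same 4 siCo libraries, so the results of these comparisons are not independent of each other.

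The proteasome is the protease complex that degrades proteins tagged with ubiquitin. Its barrel-shaped core, the 20S particle, is built from outer rings of alpha subunits, which form the gate, and inner rings of beta subunits, of which PSMB5, PSMB6 and PSMB7 carry the protease activity. The 19S cap binds the tagged substrate, strips its ubiquitin and uses a ring of ATPases to unfold it. In cells exposed to interferon, PSMB8, PSMB9 and PSMB10 replace PSMB5, PSMB6 and PSMB7 in newly made cores, which are then called immunoproteasomes and make peptides suited to MHC class I presentation.

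The libraries held 29617111 to 38264296 estimated counts. YAP1 transcripts were left at 15.5% of the siCo level with siYAP/TAZ#1 and 14.3% with siYAP/TAZ#2, and WWTR1 transcripts, which encode TAZ, at 13.7% and 13.5%. All 12 libraries held the keratin transcripts of an epithelial line, with KRT8 between 695 and 1518 TPM (counts scaled by transcript length and to the same total in every library). The alveolar type II cell genes SFTPC, SFTPB, SFTPA1, SFTPA2 and NKX2-1 did not exceed 0.239 TPM in any library, so the defining secretory genes of that cell type were near 0 in the line. Of the 7 genes of that list 2 passed the filter, ABCA3 and NAPSA, and both were higher with either combination. The leukocyte gene PTPRC stayed at or below 0.525 TPM and the endothelial genes CDH5, VWF and KDR at or below 0.271 TPM, while CD68 stood at 11.5 to 23.3 TPM. The leukocyte and endothelial genes tested (2 of 6 and 1 of 4) did not pass the test with either combination. Of 5 fibroblast genes 4 were tested and 1 rose with each combination, COL1A1 at 0.47 (adjusted p = 0.00291) with siYAP/TAZ#1 and PDGFRA at 1.36 (adjusted p = 0.0212) with siYAP/TAZ#2, and the summed level of the 5 was 31.8 to 44.7 TPM in siYAP/TAZ#1 libraries, 24.0 to 38.7 TPM in siYAP/TAZ#2 libraries and 16.4 to 26.8 TPM in siCo libraries. Nearly all of that level was COL1A1, and none of the other 4 genes exceeded 1.01 TPM. Of the 6 epithelial genes 3 rose with either combination, CDH1, KRT19 and EPCAM, while KRT7 fell with both and KRT18 with siYAP/TAZ#2, and their summed level was 2801 to 4107 TPM in siYAP/TAZ#1 libraries, 2693 to 3901 TPM in siYAP/TAZ#2 libraries and 2526 to 3650 TPM in siCo libraries. The part of these markers in the proteasome results was not tested. Replicate 1 of siYAP/TAZ#2 stood apart from the other 3 libraries of its group (correlation of log2 counts 0.979 to 0.984, against 0.989 to 0.990 among the other 3), and the proteasome genes whose call changes without it are named below. In bulk RNA, fewer cells of a type and less RNA per cell cannot be told apart.

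In siCo cells the subunits of this stoichiometric complex were not equally abundant as transcripts, and the lowest of those tested were the immunoproteasome subunits. PSMD8, a subunit of the 19S lid, was the highest at 240 ± 47.0 TPM (SD, n = 4), followed by PSMB3, a structural beta subunit, at 179 ± 45.7 TPM and PSMC4, a cap ATPase, at 135 ± 26.7 TPM. PSMB9 was the lowest at 3.72 ± 0.697 TPM, below PSMB8 at 5.28 ± 0.885 TPM and PSMB10 at 11.2 ± 2.09 TPM. The mean TPM of the 41 genes spanned 64.6-fold. The gaps along this order were mostly within the spread: of 42 pairs of neighbouring genes in the order, 2 did not overlap between libraries, PSMB10 above PSMB8 and PSMB9 above PSMA8. PSMA8, an alpha subunit of the testis, was at 0 TPM in all 12 libraries. PSMB11, the beta subunit of thymic cortical epithelium, was at 0 TPM in 11 libraries and at 0.0130 TPM in siYAP/TAZ#2 replicate 3.

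Medians by role in siCo cells were 80.0 TPM for the 7 constitutive beta genes, 37.5 TPM for the 7 alpha genes, 35.8 TPM for the 6 cap ATPases, 42.5 TPM for the 3 other base subunits, 31.3 TPM for the 8 lid subunits, 17.2 TPM for the 3 assembly chaperones, 35.1 TPM for the 4 activators and 5.28 TPM for the 3 immunoproteasome subunits. The 43 genes together took 0.209 to 0.350% of all TPM in siYAP/TAZ#1 libraries, 0.178 to 0.348% in siYAP/TAZ#2 libraries and 0.166 to 0.267% in siCo libraries. On the TPM scale replicate 4 was the highest of its group for 41 of 41 genes with siYAP/TAZ#1, for 41 with siYAP/TAZ#2 and for 39 in siCo. The share of all genes for which this held is not given here. It also held for YAP1 in all 3 groups and for WWTR1 in both knockdown groups, genes outside the proteasome set. The lowest library of its group in TPM was siYAP/TAZ#2 replicate 1 for 39 of 41 proteasome genes and siCo replicate 3 for 39. With siYAP/TAZ#1 it was replicate 2 for 31. Counts scaled by the trimmed mean of M-values (TMM-scaled CPM, counts set to a common total after a factor that centres most genes) were steadier, with a median coefficient of variation over the 41 genes of 5.36% in siYAP/TAZ#1, 9.46% in siYAP/TAZ#2 and 4.54% in siCo libraries. Over all genes tested the median was 9.60%, 15.5% and 10.4%, in the same order.

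**Figure D1:**
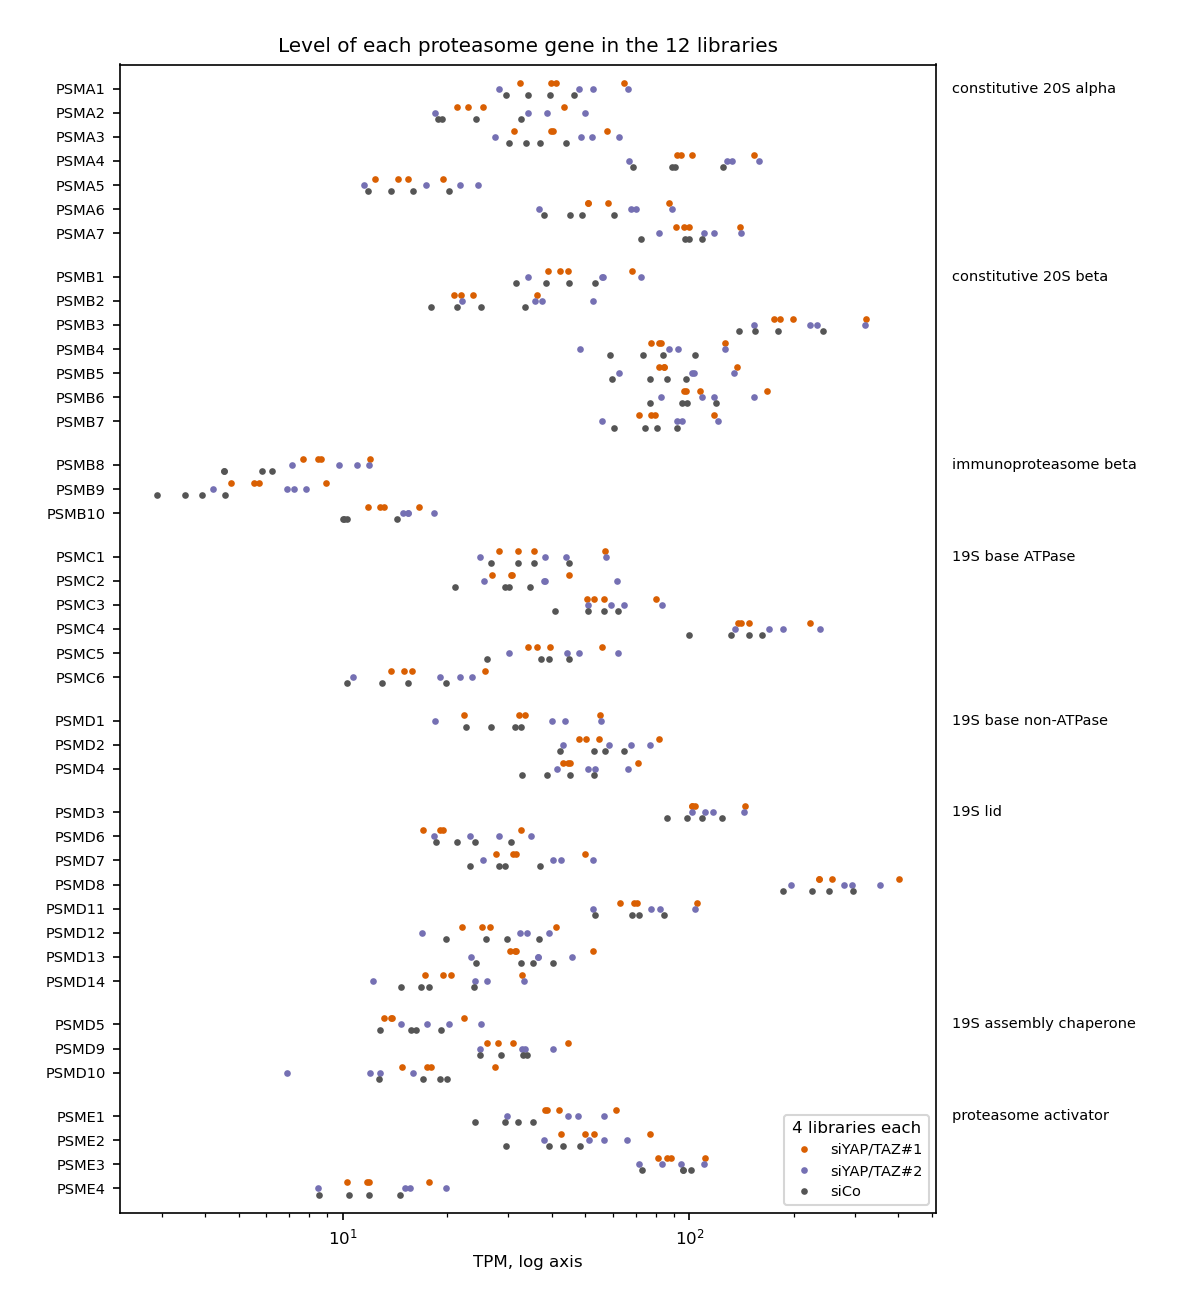
Level of the 41 tested proteasome genes in each of the 12 libraries (points), in TPM on a log axis, grouped by role, with siYAP/TAZ#1, siYAP/TAZ#2 and siCo drawn in that order for each gene. PSMB9 and PSMB8 have the lowest means in each group, and PSMB10 lies near PSME4. PSMB9 at 3.72 TPM and PSMD8 at 240 TPM are the siCo extremes, and the groups overlap for most genes on this scale.

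On TMM-scaled counts the log2 change was negative for 36 of 41 proteasome genes with siYAP/TAZ#1 and for 33 with siYAP/TAZ#2, while the immunoproteasome subunit PSMB8 was higher with either. With siYAP/TAZ#1, 18 of the 41 genes fell and 2 rose (edgeR's quasi-likelihood test, adjusted p under 0.05 over all genes), where 18.5% of all genes tested fell and 16.4% rose. With siYAP/TAZ#2, 17 of 41 fell and 2 rose, where 19.2% of all genes fell and 19% rose. At the median the proteasome genes varied less between libraries than all genes tested. The part of this lower spread in the shares called was not tested. The proteasome genes are all protein-coding, and the excess was smaller in a fit of protein-coding genes alone. There 14 of 41 fell and 3 rose with siYAP/TAZ#1, where 23.9% and 23.1% of the protein-coding genes did so. With siYAP/TAZ#2, 16 fell and 4 rose in that fit, where 24.8% and 26.0% did so. Without siYAP/TAZ#1 replicate 1, 11 genes fell with siYAP/TAZ#1, where 15.9% of all genes fell. Without siYAP/TAZ#2 replicate 1, 18 fell and 3 rose with siYAP/TAZ#2, where 22.1% and 20.8% of all genes did so: PSMC3, PSMD4 and PSME1 were added and PSMA5 was lost. In the same fit, 24 fell and 3 rose with siYAP/TAZ#1, where 22.3% and 19.1% of all genes did so, the added genes being PSMB1, PSMC3, PSMC6, PSMD4, PSMD9 and PSMD10, lower, and PSMB9, higher. Leaving out any other library except siCo replicate 4 left 1 gene, PSMB8, higher with siYAP/TAZ#2. The median log2 change of the 41 genes was −0.16 with siYAP/TAZ#1 and −0.14 with siYAP/TAZ#2, and the median of all genes was 0.02 in both comparisons. The changes were small: all 41 genes with siYAP/TAZ#1 and 40 of 41 with siYAP/TAZ#2 changed by less than 0.5 on the log2 scale, the exception being PSMD10. All 4 siYAP/TAZ#1 libraries lay below all 4 siCo libraries for 22 of 41 genes and above them for 3, where 20.7% and 18.0% of all genes did so. For siYAP/TAZ#2 libraries these numbers were 18 and 3 of 41 genes, where 17.7% and 17.0% of all genes did so. In TPM the siYAP/TAZ#1 libraries lay below siCo for 0 of 41 genes and above for 3, where 0.945% and 19.9% of all genes did so, and the siYAP/TAZ#2 libraries for 0 and 2, where 1.07% and 19.4% did so.

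The direction of this shift depended on the scale. With counts divided by library size alone, the median of all genes moved up to 0.20 with siYAP/TAZ#1 and 0.21 with siYAP/TAZ#2, and the proteasome medians came to 0.01 and 0.05. There 3 of 41 genes fell and 4 rose with siYAP/TAZ#1, where 8.83% and 27.2% of all genes did so, and 2 fell and 7 rose with siYAP/TAZ#2, where 9.44% and 30.3% did so. On counts the proteasome median minus that of all genes was −0.19 with siYAP/TAZ#1 and −0.16 with siYAP/TAZ#2 under either scaling, which is fixed by construction, since scaling shifts every gene by about the same amount. With siYAP/TAZ#1 36 of 41 genes lay below the all-gene median, the 5 above it being PSMB8, PSMB9, PSMB10, PSME1 and PSME2. With siYAP/TAZ#2 34 of 41 lay below it, and those above were PSMB8, PSMB9, PSMB10, PSME1, PSMA2, PSMB2 and PSMC2.

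On TPM, tested with limma on log2(TPM + 1), the proteasome median was 0.20 with siYAP/TAZ#1 and 0.31 with siYAP/TAZ#2, beside all-gene medians of 0.19 and 0.24, and so 0.01 and 0.07 above them. On that scale 23 of 41 genes with siYAP/TAZ#1 and 26 with siYAP/TAZ#2 lay above the all-gene median. By that test 0 genes fell and 1 rose with siYAP/TAZ#1, where 0.811% and 8.22% of all genes did so, and 0 fell and 3 rose with siYAP/TAZ#2, where 0.913% and 15.6% did so, and the 3 were the immunoproteasome subunits. After TMM factors were applied to the TPM values, a step chosen after seeing the data, 11 fell and 3 rose with siYAP/TAZ#1, where 13.5% and 11.9% of all genes did so, and 13 fell and 2 rose with siYAP/TAZ#2, where 15.0% and 14.4% did so. In that setting the proteasome medians were −0.15 and −0.11, beside an all-gene median of 0.01 in both comparisons. There 37 of 41 genes with siYAP/TAZ#1 and 34 with siYAP/TAZ#2 lay below the all-gene median, unlike on TPM without these factors. Each change below is therefore given on TMM-scaled counts, and "fell" means lower on that scale, with the other scales where they differ. The counts by role and list below stand against the same shares of all genes, on TMM-scaled counts 18.5% lower and 16.4% higher with siYAP/TAZ#1 and 19.2% lower and 19% higher with siYAP/TAZ#2. The genes called on library size alone with siYAP/TAZ#1 were PSMD6, PSMD5 and PSME3, lower, and PSMB8, PSMB9, PSME1 and PSME2, higher. With siYAP/TAZ#2 they were PSMD10 and PSME3, lower, and PSMB2, PSMB8, PSMB9, PSMB10, PSMC2, PSMC4 and PSME1, higher. Whether counting used strand is not given in the sources used here, and 17 of the 43 genes overlap a tested gene on the other strand, so reads in the shared stretches cannot be told apart. They are PSMA2, PSMA3, PSMA8, PSMB8, PSMB9, PSMC1, PSMC2, PSMC5, PSMD5, PSMD6, PSMD7, PSMD11, PSMD13, PSME1, PSME2, PSME3 and PSME4.

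**Figure D2:**
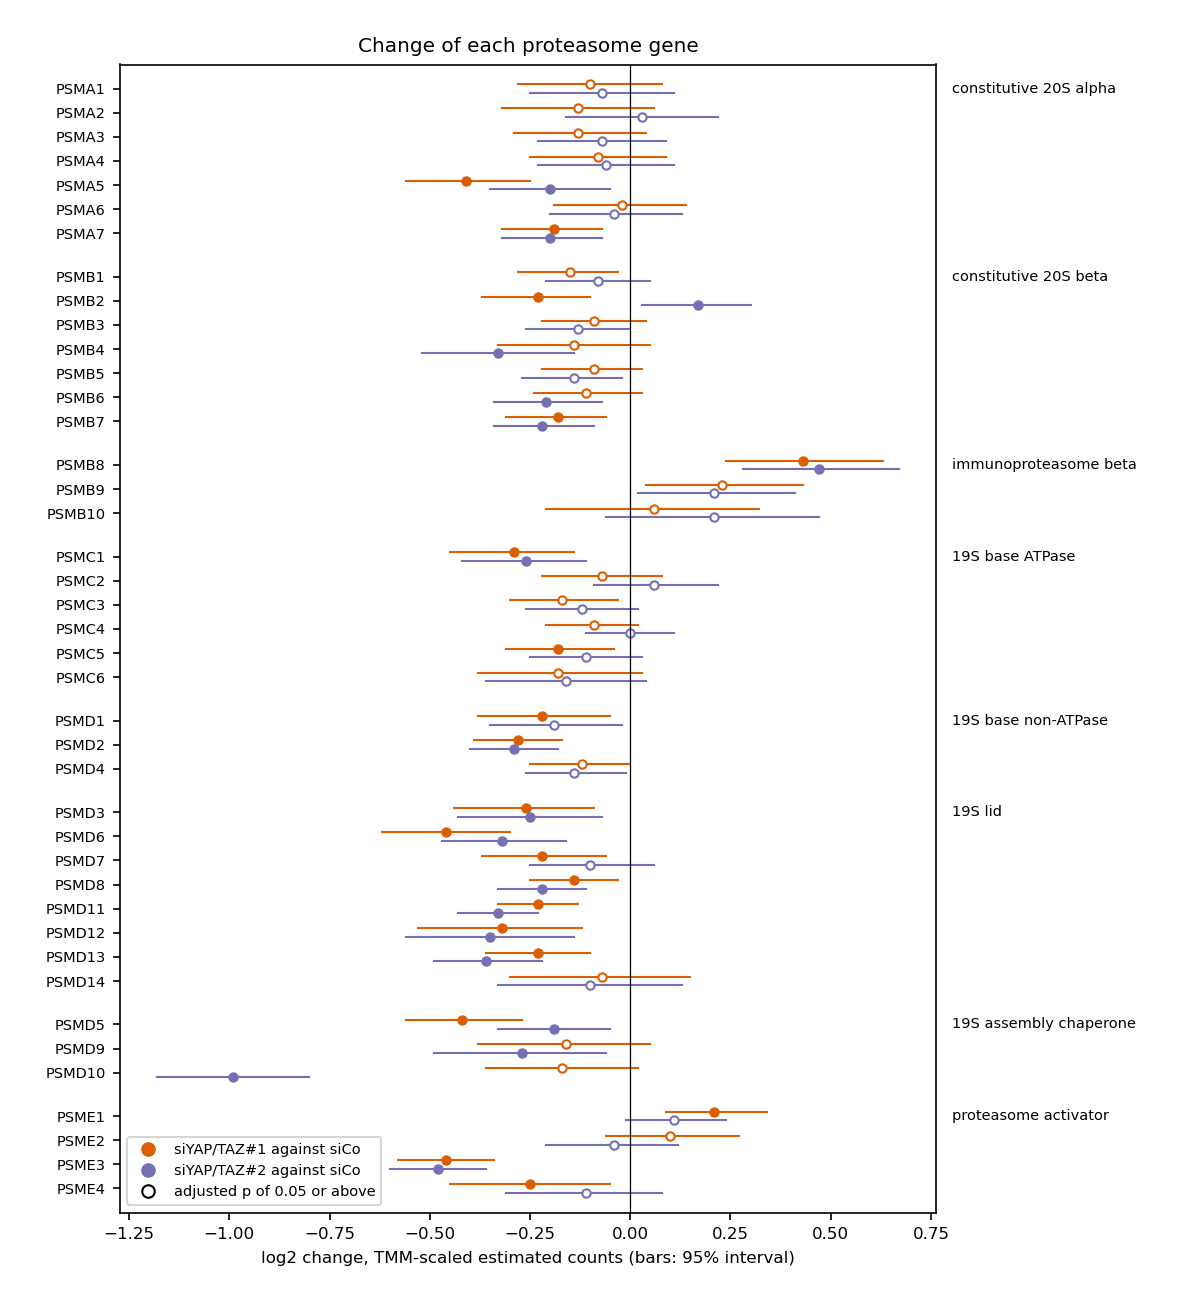
Log2 change of each of the 41 genes on TMM-scaled counts, with siYAP/TAZ#1 above siYAP/TAZ#2 for each gene, both against siCo (n = 4 libraries per group). Bars are 95% intervals and filled points passed an adjusted p of 0.05. PSMB8 is the highest point for both combinations and PSMD10 with siYAP/TAZ#2 the lowest at −0.99. On log2(TPM + 1) most of the negative values turn positive. After TMM on TPM the change was negative for 37 of 41 genes with siYAP/TAZ#1 and for 34 with siYAP/TAZ#2.

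**Figure D3:**
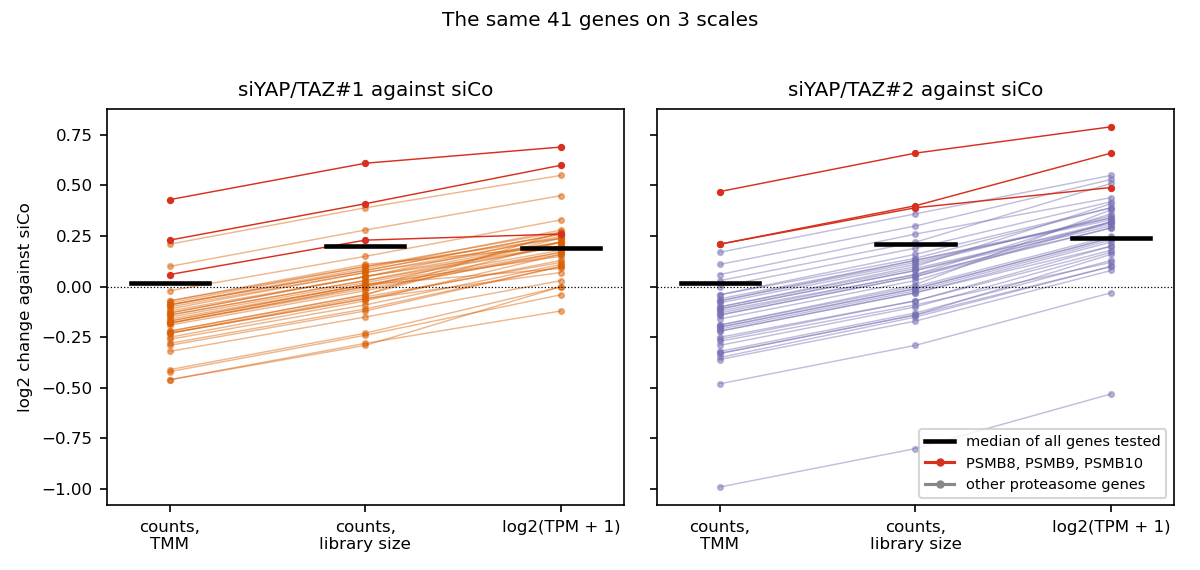
Log2 change of the same 41 genes (thin lines) on TMM-scaled counts, on counts divided by library size and on log2(TPM + 1), for siYAP/TAZ#1 against siCo on the left and siYAP/TAZ#2 against siCo on the right. Black bars are the medians of all 21581 genes, at 0.02, 0.20 and 0.19 on the left and 0.02, 0.21 and 0.24 on the right. PSMB8 (top red line) stays positive on each scale.

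Among the 7 alpha subunits, which form the outer rings and the gate, 2 fell with siYAP/TAZ#1 and 2 with siYAP/TAZ#2, and none rose. PSMA5 (ENSG00000143106.13, GRCh38 chr1:109399031-109426427, minus strand) was at 31.6, 30.6, 32.4 and 31.1 TMM-scaled CPM in siYAP/TAZ#1 libraries, 31.9, 41, 36.6 and 35.6 in siYAP/TAZ#2 libraries and 43.6, 38.7, 42.6 and 41.9 in siCo libraries. All siYAP/TAZ#1 libraries lay below all siCo libraries, while siYAP/TAZ#2 replicate 2 lay within the siCo range. The log2 change was −0.41 ± 0.072 (SE, adjusted p = 3.16e-04) with siYAP/TAZ#1 and −0.20 ± 0.072 (adjusted p = 0.0369) with siYAP/TAZ#2, and the second call held in 4 of the 12 fits that left out 1 library. Without siYAP/TAZ#2 replicate 1, its lowest library, the second change was −0.14 (adjusted p = 0.0724), and with the replicate number as a block the second call was lost (adjusted p = 0.0519). PSMA7 also fell, at −0.19 (adjusted p = 0.0175) and −0.20 (adjusted p = 0.0139), and was not called without siCo replicate 2 in either comparison, nor without siYAP/TAZ#1 replicate 4 in the siYAP/TAZ#1 comparison. PSMA1, PSMA2, PSMA3, PSMA4 and PSMA6 did not pass the test, with changes between −0.13 and 0.03. The log2(TPM + 1) scale put PSMA5 at 0.00 with siYAP/TAZ#1 and 0.24 with siYAP/TAZ#2, and PSMA7 at 0.17 and 0.24.

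Among the 7 constitutive beta subunits, 2 fell with siYAP/TAZ#1, and with siYAP/TAZ#2 3 fell and 1 rose. PSMB7, the trypsin-like subunit, fell, at −0.18 ± 0.059 (adjusted p = 0.0220) with siYAP/TAZ#1 and −0.22 ± 0.059 (adjusted p = 0.00756) with siYAP/TAZ#2, the first call being lost without siYAP/TAZ#1 replicate 1, siCo replicate 2 or siCo replicate 3. PSMB6, the caspase-like subunit, was at −0.11 (adjusted p = 0.210) with siYAP/TAZ#1 and fell, at −0.21 (adjusted p = 0.0157) with siYAP/TAZ#2, a call lost without siYAP/TAZ#2 replicate 2. PSMB5, the chymotrypsin-like subunit and the main target of proteasome inhibitor drugs, did not pass the test, at −0.09 (adjusted p = 0.266) and −0.14 (adjusted p = 0.0677). PSMB4, a subunit without protease activity, was at −0.14 (adjusted p = 0.252) with siYAP/TAZ#1 and fell, at −0.33 ± 0.089 (adjusted p = 0.00757) with siYAP/TAZ#2. The log2(TPM + 1) changes of PSMB4, PSMB5, PSMB6 and PSMB7 were all positive.

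PSMB2, a structural beta subunit, differed between the combinations. PSMB2 (ENSG00000126067.12, GRCh38 chr1:35599544-35641844, minus strand) was at 66.5, 61.8, 60.6 and 64.3 TMM-scaled CPM in siYAP/TAZ#1 libraries, 74.8, 84.0, 85.4 and 89.8 in siYAP/TAZ#2 libraries and 74.6, 72.6, 71.5 and 79.0 in siCo libraries. The siYAP/TAZ#1 libraries lay below all others, and siYAP/TAZ#2 overlapped siCo through its replicate 1. The log2 change was −0.23 ± 0.063 (adjusted p = 0.00800) with siYAP/TAZ#1 and 0.17 ± 0.063 (adjusted p = 0.0474) with siYAP/TAZ#2. The rise with siYAP/TAZ#2 held in 2 of 12 fits that left out 1 library, without siYAP/TAZ#2 replicate 1 or siCo replicate 4, and was lost with the replicate number as a block (adjusted p = 0.0520). The rise was not called on log2(TPM + 1) (adjusted p = 0.172), and the fall with siYAP/TAZ#1 came to −0.06 with library size alone and 0.07 on log2(TPM + 1). The difference between the combinations, siYAP/TAZ#1 minus siYAP/TAZ#2, was −0.40 ± 0.063 (adjusted p = 2.51e-04), held in all 12 such fits and was −0.42 with library size alone and −0.48 on log2(TPM + 1).

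Among the immunoproteasome subunits PSMB8 rose, while PSMB9 and PSMB10 did not pass the test on TMM-scaled counts and did on some of the other scales. PSMB8, which replaces PSMB5 (ENSG00000204264.11, GRCh38 chr6:32840717-32844703, minus strand), was at 12, 12.8, 10.8 and 11.3 TMM-scaled CPM in siYAP/TAZ#1 libraries, 11.7, 11.9, 13.6 and 10.9 in siYAP/TAZ#2 libraries and 8.96, 7.82, 9.45 and 8.51 in siCo libraries. Every knockdown library lay above every siCo library. PSMB8 rose by 0.43 ± 0.092 on the log2 scale (1.35-fold, adjusted p = 0.00141) with siYAP/TAZ#1 and by 0.47 ± 0.092 (1.39-fold, adjusted p = 6.42e-04) with siYAP/TAZ#2. Both calls held in all 12 fits that left out 1 library and under each alternative tried, including library size alone at 0.61 and 0.66 and log2(TPM + 1) at 0.69 and 0.79. The level was low, at 7.65 to 12 TPM in siYAP/TAZ#1 libraries, 7.15 to 11.9 TPM in siYAP/TAZ#2 libraries and 4.53 to 6.24 TPM in siCo libraries.

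PSMB9, which replaces PSMB6 (ENSG00000240065.8, GRCh38 chr6:32844136-32859585, plus strand), was at 5.85, 5.66, 5.97 and 5.85 TMM-scaled CPM in siYAP/TAZ#1 libraries, 5.46, 5.88, 5.94 and 5.76 in siYAP/TAZ#2 libraries and 5.17, 5.02, 5.36 and 4.35 in siCo libraries. The knockdown libraries lay above all siCo libraries, but the gene did not pass the test, with changes of 0.23 ± 0.092 (adjusted p = 0.0637) and 0.21 ± 0.093 (adjusted p = 0.0838). It passed with library size alone, at 0.41 (adjusted p = 0.00511) and 0.40 (adjusted p = 0.00501), with protein-coding genes alone, and on TPM after TMM factors, where limma gave adjusted p-values of 0.0132 and 0.0136. It was also called with siYAP/TAZ#2 on log2(TPM + 1) (adjusted p = 0.0443), and with siYAP/TAZ#1 on counts in the compared groups alone and without siYAP/TAZ#2 replicate 1 (adjusted p = 0.0497). PSMB10, which replaces PSMB7 (ENSG00000205220.12, GRCh38 chr16:67934502-67937087, minus strand), was at 10.8, 12.3, 11 and 9.90 TMM-scaled CPM in siYAP/TAZ#1 libraries, 15.7, 10.6, 11.6 and 11 in siYAP/TAZ#2 libraries and 9.06, 10.1, 12 and 11.2 in siCo libraries. The groups overlapped, and the changes of 0.06 (adjusted p = 0.767) and 0.21 (adjusted p = 0.214) did not pass. PSMB10 was called with siYAP/TAZ#2 on library size alone (adjusted p = 0.00829) and on log2(TPM + 1) (adjusted p = 0.0300). The change of 0.21 on TMM-scaled counts rested on siYAP/TAZ#2 replicate 1, at 15.7 TMM-scaled CPM, and was 0.07 without it. In TPM that library was at 15.4, with the others of its group at 14.9, 15.4 and 18.3. It was, however, the lowest of its group in TPM for 39 of 41 proteasome genes. Set against PSMB7 in TPM, PSMB10 was at 27.5% in that library and at 16.2, 16.2 and 15.1% in the others of its group. PSMB9 overlaps PSMB8 and the peptide transporter gene TAP1, both on the opposite strand.

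The ratio of each immunoproteasome subunit to the subunit it replaces is the same however whole libraries are scaled. The PSMB8 to PSMB5 ratio of TPM was 10.2, 10.4, 9.06 and 8.72% in siYAP/TAZ#1 libraries, 11.5, 9.46, 10.8 and 8.87% in siYAP/TAZ#2 libraries and 6.77, 5.90, 7.59 and 6.40% in siCo libraries. Both knockdown groups lay wholly above siCo. The PSMB9 to PSMB6 ratio of TPM was 5.33, 4.90, 5.74 and 5.32% in siYAP/TAZ#1 libraries, 5.09, 6.66, 5.87 and 5.10% in siYAP/TAZ#2 libraries and 4.63, 3.67, 3.79 and 3.29% in siCo libraries, again without overlap. The PSMB10 to PSMB7 ratio of TPM was 14.0 to 16.9% in siYAP/TAZ#1 libraries, 15.1 to 27.5% in siYAP/TAZ#2 libraries and 12.4 to 16.7% in siCo libraries, which overlapped, and its highest value came from siYAP/TAZ#2 replicate 1.

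These ratios were tested on estimated counts with exact two-sided permutation tests, 9 in all, for which 4 libraries against 4 allow no p below 0.0286. Ratios of counts and of TPM are not the same. On TPM the log2 differences were 0.48 and 0.56 for PSMB9 to PSMB6 and 0.12 and 0.32 for PSMB10 to PSMB7. On counts PSMB10 to PSMB7 was 12.9 to 21.2% in siYAP/TAZ#2 and 9.82 to 12.3% in siCo libraries, without the overlap seen on TPM. The log2 ratio of PSMB8 to PSMB5 was higher by 0.53 with siYAP/TAZ#1 and 0.61 with siYAP/TAZ#2, each at the smallest p, 0.0286, and at 0.0514 after Benjamini-Hochberg adjustment over the 9 exact tests. The log2 ratio of PSMB9 to PSMB6 differed by 0.34 and 0.42 and that of PSMB10 to PSMB7 with siYAP/TAZ#2 by 0.42, all with an exact p of 0.0286 and an adjusted p of 0.0514, the last being 0.24 without siYAP/TAZ#2 replicate 1. The PSMB10 to PSMB7 ratio with siYAP/TAZ#1 differed by 0.24 (exact p = 0.0857, adjusted p = 0.129). No adjusted value passed 0.05. Between the combinations, siYAP/TAZ#1 minus siYAP/TAZ#2, the 3 log2 ratios differed by −0.09, −0.08 and −0.17, less than their spread (exact p = 0.371, 0.371 and 0.571).

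**Figure D4:**
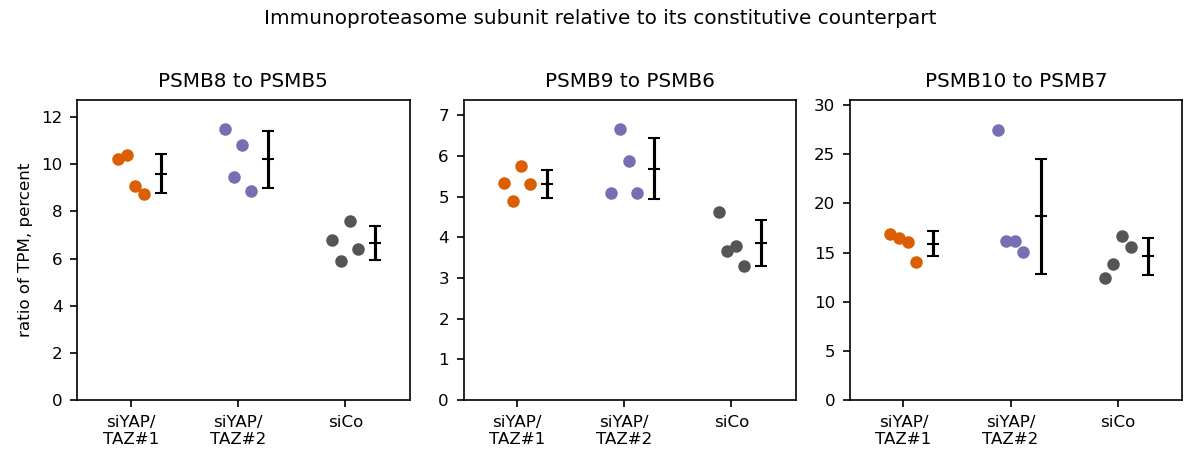
Ratio of TPM of each immunoproteasome subunit to the constitutive subunit it replaces, in percent, for siYAP/TAZ#1, siYAP/TAZ#2 and siCo libraries (points), with mean and SD (bars, n = 4). PSMB8 to PSMB5 lies between 8.72 and 11.5% in the knockdown libraries and between 5.90 and 7.59% in siCo libraries, and 1 siYAP/TAZ#2 library stands at 27.5% for PSMB10 to PSMB7.

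Interferon-responsive promoters often carry the interferon-stimulated response element, bound by complexes that hold IRF factors, so the start sites of the proteasome genes were searched on both strands for its core, GAAA followed after any 2 bases by GAAA again. RefSeq windows on GRCh38.p14, from 250 bases before to 50 after each start, were at hand for 38 of the 43 genes (45 windows). They were not matched for PSMA7, PSMB1, PSMB6, PSMB7 and PSMD4. The core stood in 6 of 45 windows, 13.3%, against 3.57% of all 35116 windows, and the genes were PSMB8, PSMB10, PSME1, PSME2, PSMA4 and PSMB4. In PSMB8, PSMB10, PSME1 and PSME2 the letters were the same, GAAAGCGAAA on one strand or the other, a match noticed after the search, and 35 of all windows, 0.0997%, held those letters. The windows of these 4 genes are printed because they share this run and because the 4 genes are known as interferon-inducible. Each is written 5′ to 3′ along its gene, with the core in capitals (TTTCGCTTTC is the same run read from the other strand).

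PSMB8, chr6:32843998-32844297, minus strand: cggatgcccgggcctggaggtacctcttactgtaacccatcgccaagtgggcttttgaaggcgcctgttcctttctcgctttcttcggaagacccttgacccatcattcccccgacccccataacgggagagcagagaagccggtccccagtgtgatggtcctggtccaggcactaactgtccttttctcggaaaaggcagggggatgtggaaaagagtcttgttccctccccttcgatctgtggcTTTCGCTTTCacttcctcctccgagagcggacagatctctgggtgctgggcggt

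PSMB10, chr16:67936801-67937100, minus strand: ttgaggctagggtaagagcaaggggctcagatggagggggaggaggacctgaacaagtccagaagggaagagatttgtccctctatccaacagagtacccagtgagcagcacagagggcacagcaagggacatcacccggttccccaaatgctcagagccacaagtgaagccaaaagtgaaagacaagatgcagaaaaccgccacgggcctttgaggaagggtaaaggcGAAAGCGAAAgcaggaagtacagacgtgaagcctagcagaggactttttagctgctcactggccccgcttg

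PSME1, chr14:24135944-24136243, plus strand: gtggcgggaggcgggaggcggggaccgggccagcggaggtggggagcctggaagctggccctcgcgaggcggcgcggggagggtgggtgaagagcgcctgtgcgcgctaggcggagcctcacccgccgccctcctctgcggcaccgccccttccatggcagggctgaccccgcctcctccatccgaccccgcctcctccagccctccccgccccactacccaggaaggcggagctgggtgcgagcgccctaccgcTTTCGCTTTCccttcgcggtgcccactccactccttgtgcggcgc

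PSME2, chr14:24146561-24146860, minus strand: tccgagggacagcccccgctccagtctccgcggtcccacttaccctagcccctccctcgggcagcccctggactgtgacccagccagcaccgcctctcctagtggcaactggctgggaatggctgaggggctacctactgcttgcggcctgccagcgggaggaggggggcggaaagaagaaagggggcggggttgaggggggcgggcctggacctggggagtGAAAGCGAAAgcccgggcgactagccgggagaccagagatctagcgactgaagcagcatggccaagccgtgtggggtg

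The first base of the run stood at −4 from the start in PSMB8, −21 in PSMB10, 5 in PSME1 and −28 in PSME2. The PSMB8 window is 1 of 2 for that gene, and the PSMB9 window held no match to the core. Of the 4 genes, PSMB8 rose with both combinations and PSME1 with siYAP/TAZ#1, while PSMB10 and PSME2 did not pass the test with either. The TEAD motif GGAATG, the letters bound by the factors through which YAP and TAZ reach DNA, stood in 7 of 45 proteasome windows, 15.6%, against 14.0% of all windows. The antioxidant response element core TGACNNNGC, bound by NFE2L1 and NFE2L2, stood in 13 of 45, 28.9%, against 13.3%, the GC box GGGCGG in 66.7% against 45%, and CCAAT in 42.2% against 34.6%. Also searched was the GAS element TTCNNNGAA, in 8 of 45 windows, 17.8%, against 7.66%. Its genes were PSMB8, PSMD2, PSMA2, PSMB5, PSMD3, PSME3, PSMA8 and PSMC4. PSMB8 rose with both combinations, while PSMD2, PSMD3 and PSME3 fell with both. The AP-1 site (6.67% against 7.71%), E-box (6.67% against 7.26%), TATA box (11.1% against 11.5%) and cAMP response element (0% against 1.85%) were searched too. Motifs were searched on both strands, and matches to different motifs may overlap. A match describes letters in a window and not a bound site.

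In the base of the 19S cap, the 6 ATPases PSMC1 to PSMC6 unfold substrates and open the gate. Of these, 2 fell with siYAP/TAZ#1 and 1 with siYAP/TAZ#2, with none higher. PSMC1 fell, at −0.29 ± 0.073 (adjusted p = 0.00478) with siYAP/TAZ#1 and −0.26 ± 0.073 (adjusted p = 0.00913) with siYAP/TAZ#2, and all knockdown libraries lay below all siCo libraries. Its pseudogene PSMC1P1 had a mean count of 92.5, 5.01% of that of PSMC1, and reads the copies share could have been assigned to either. PSMC5 fell, at −0.18 (adjusted p = 0.0445) with siYAP/TAZ#1, a call that held in 6 of 12 fits leaving out 1 library and was lost with the replicate number as a block (adjusted p = 0.0615), and was at −0.11 (adjusted p = 0.208) with siYAP/TAZ#2. PSMC3 was called without siYAP/TAZ#2 replicate 1 at −0.17 in both comparisons. PSMC4, the most abundant ATPase transcript, was at −0.09 (adjusted p = 0.190) and 0.00 (adjusted p = 0.987).

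Of the 3 base subunits without ATPase activity, PSMD2, a scaffold that docks ubiquitin-like shuttle proteins, fell with both combinations. PSMD2 was at 197, 197, 186 and 192 TMM-scaled CPM in siYAP/TAZ#1 libraries, 189, 184, 207 and 188 in siYAP/TAZ#2 libraries and 233, 241, 233 and 230 in siCo libraries. All knockdown libraries lay below all siCo libraries, with changes of −0.28 ± 0.052 (adjusted p = 4.83e-04) and −0.29 ± 0.052 (adjusted p = 3.56e-04). PSMD1, the other large scaffold, fell, at −0.22 (adjusted p = 0.0380, called in 6 of 12 fits leaving out 1 library) with siYAP/TAZ#1 and was at −0.19 (adjusted p = 0.0716) with siYAP/TAZ#2. PSMD4, a ubiquitin receptor, did not pass, at −0.12 and −0.14, and was called without siYAP/TAZ#2 replicate 1, at −0.13 (adjusted p = 0.0387) and −0.16 (adjusted p = 0.0188). The changes of PSMC1 and PSMD2 lay between −0.12 and −0.07 with library size alone and were not called, and on log2(TPM + 1) they were between 0.10 and 0.20.

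The lid holds the deubiquitinase and brackets the cap to the core. Of its 8 subunits 7 fell with siYAP/TAZ#1, where 18.5% of all genes did, and 6 with siYAP/TAZ#2, where 19.2% did, none rose, and the group medians were −0.23 and −0.28. On library size alone 1 fell with siYAP/TAZ#1, where 8.83% of all genes did, and 0 with siYAP/TAZ#2, where 9.44% did, and the medians were −0.05 and −0.10, and on log2(TPM + 1) the medians turned to 0.13 and 0.17. PSMD6 (ENSG00000163636.10, GRCh38 chr3:64010549-64024010, minus strand), a structural lid subunit, was at 34.5, 35.3, 35.5 and 40.1 TMM-scaled CPM in siYAP/TAZ#1 libraries, 38.1, 36.5, 43.5 and 42.5 in siYAP/TAZ#2 libraries and 48.4, 46.7, 50.8 and 54.1 in siCo libraries. No knockdown library reached the siCo range. PSMD6 fell, at −0.46 ± 0.074 (adjusted p = 1.27e-04) with siYAP/TAZ#1 and −0.32 ± 0.074 (adjusted p = 0.00262) with siYAP/TAZ#2. Its changes with library size alone were −0.28 (adjusted p = 0.0173) and −0.13 (adjusted p = 0.260). On log2(TPM + 1) it was at −0.12 and 0.13. After TMM on TPM it was at −0.46 (limma, adjusted p = 0.00101) and −0.29 (adjusted p = 0.0137).

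PSMD11, a lid scaffold, was at 257, 257, 257 and 265 TMM-scaled CPM in siYAP/TAZ#1 libraries, 232, 246, 248 and 244 in siYAP/TAZ#2 libraries and 301, 308, 304 and 304 in siCo libraries. The 3 groups did not overlap, with siYAP/TAZ#2 lowest. PSMD11 fell, at −0.23 ± 0.046 (adjusted p = 8.51e-04) with siYAP/TAZ#1 and −0.33 ± 0.046 (adjusted p = 3.28e-05) with siYAP/TAZ#2, and the difference between the combinations, 0.10, did not pass (adjusted p = 0.212). PSMD13 fell, at −0.23 (adjusted p = 0.00848) and −0.36 (adjusted p = 2.22e-04), and PSMD12 at −0.32 (adjusted p = 0.0165) and −0.35 (adjusted p = 0.0100), where the first call was lost without siYAP/TAZ#1 replicate 2 or siCo replicate 4. PSMD8, the most abundant proteasome transcript, fell, at −0.14 (adjusted p = 0.0448) and −0.22 (adjusted p = 0.00330), the first call holding in 3 of 12 fits leaving out 1 library, being lost with the replicate number as a block (adjusted p = 0.0584) and turning to 0.03 with library size alone. PSMD3 fell, at −0.26 and −0.25, called in 8 and 7 of the 12 fits leaving out 1 library, and PSMD7 at −0.22 with siYAP/TAZ#1, called in 6. PSMD14, the deubiquitinase, did not pass, at −0.07 (adjusted p = 0.652) and −0.10 (adjusted p = 0.50).

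PSMD5, PSMD9 and PSMD10 are chaperones that bind the ATPases during assembly of the base and leave before the cap is complete. PSMD10, also known as gankyrin and described as an oncoprotein that binds RB1 and MDM2, had the largest change of the 41 genes, with siYAP/TAZ#2. PSMD10 (ENSG00000101843.19, GRCh38 chrX:108084207-108091618, minus strand) was at 28.5, 27.4, 29.8 and 30.2 TMM-scaled CPM in siYAP/TAZ#1 libraries, 12.8, 18.0, 17.8 and 17.0 in siYAP/TAZ#2 libraries and 33.2, 32.3, 31.4 and 33.3 in siCo libraries. The siYAP/TAZ#2 libraries lay far below the others, and the siYAP/TAZ#1 libraries lay just below siCo. The log2 change was −0.17 ± 0.088 (adjusted p = 0.158) with siYAP/TAZ#1 and −0.99 ± 0.090 (0.504-fold, adjusted p = 3.02e-07) with siYAP/TAZ#2. Leaving out siYAP/TAZ#2 replicate 1, the lowest library, gave −0.88 with siYAP/TAZ#2, and the siYAP/TAZ#1 change of −0.17 was then called (adjusted p = 0.0126). The siYAP/TAZ#2 change with library size alone was −0.80 (adjusted p = 4.00e-05), and on log2(TPM + 1) it was −0.53 and not called (adjusted p = 0.156). After TMM on TPM it was −0.94 and called (limma, adjusted p = 5.66e-06). The ratio of PSMD10 to PSMD5 TPM was 107 to 137% in siYAP/TAZ#1 libraries, 46.8 to 68.5% in siYAP/TAZ#2 libraries and 99.0 to 121% in siCo libraries.

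PSMD5, described as an inhibitor of proteasome assembly when abundant, fell more with siYAP/TAZ#1. It was at 50.6, 49.7, 50.6 and 53.6 TMM-scaled CPM in siYAP/TAZ#1 libraries, 51.3, 63.5, 61.5 and 62.6 in siYAP/TAZ#2 libraries and 67.0, 70.5, 65.4 and 69.8 in siCo libraries. Both knockdown groups lay below siCo, and siYAP/TAZ#2 replicate 1 was the one library of its group near the siYAP/TAZ#1 values. The change was −0.42 ± 0.067 (adjusted p = 1.29e-04) with siYAP/TAZ#1 and −0.19 ± 0.067 (adjusted p = 0.0323) with siYAP/TAZ#2, the second call holding in 8 of 12 fits leaving out 1 library. With library size alone the changes were −0.24 and 0.00, and on log2(TPM + 1) −0.04 and 0.25. PSMD9 was at −0.16 (adjusted p = 0.235) with siYAP/TAZ#1, called without siYAP/TAZ#2 replicate 1 (adjusted p = 0.0379), and fell, at −0.27 (adjusted p = 0.0446) with siYAP/TAZ#2, a call that held in 2 of 12 fits leaving out 1 library.

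**Figure D5:**
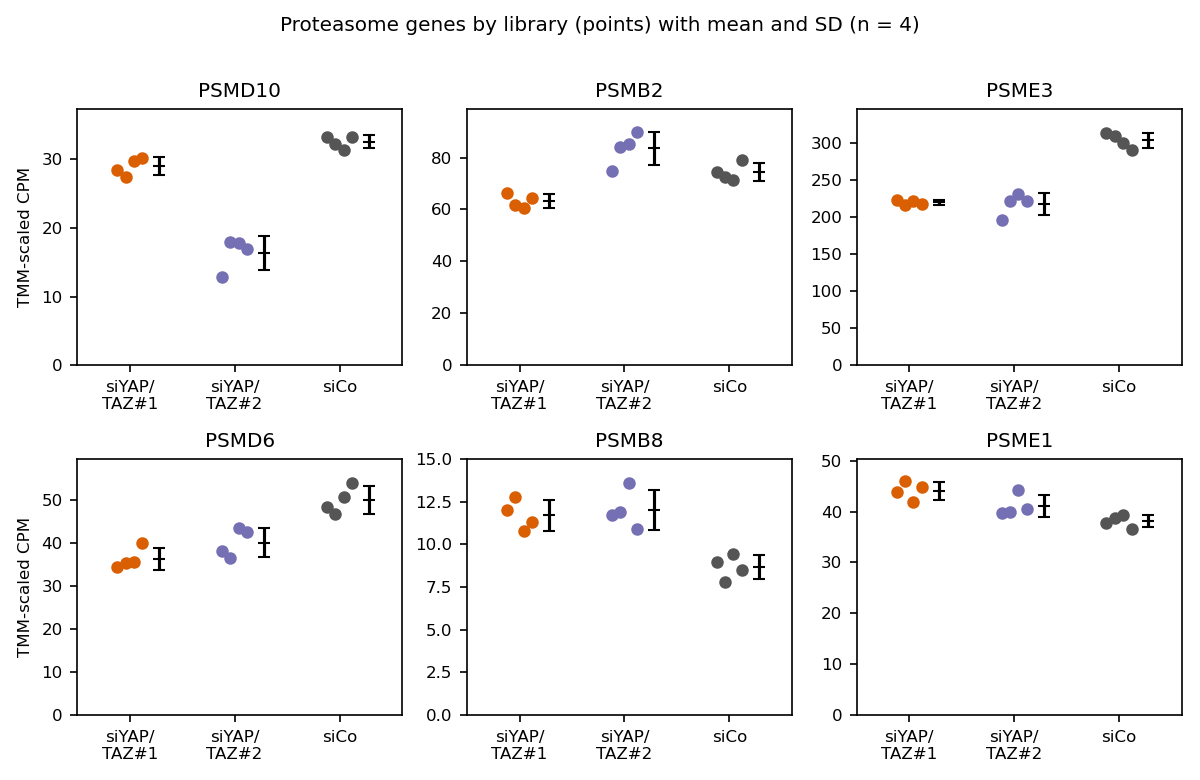
TMM-scaled CPM of PSMD10, PSMB2, PSME3, PSMD6, PSMB8 and PSME1 in siYAP/TAZ#1, siYAP/TAZ#2 and siCo libraries (points), with mean and SD (bars, n = 4). PSMD10 is at 12.8 to 18.0 in siYAP/TAZ#2 libraries alone, PSME3 and PSMD6 are lower in both knockdown groups, and PSMB8 is higher in both. On log2(TPM + 1) PSME3 is at 0.00 with siYAP/TAZ#1, and PSMD6 with siYAP/TAZ#2 and PSMB2 with siYAP/TAZ#1 are positive. After TMM on TPM the same changes are −0.35, −0.29 and −0.27.

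Of the 4 activators that cap the core in place of the 19S particle, 2 fell and 1 rose with siYAP/TAZ#1 and 1 fell with siYAP/TAZ#2. PSME1 and PSME2 together form the interferon-inducible cytoplasmic activator, PSME3 forms the nuclear one, and PSME4 is a large monomeric activator. PSME3 (ENSG00000131467.11, GRCh38 chr17:42824385-42843758, plus strand) was at 224, 217, 222 and 218 TMM-scaled CPM in siYAP/TAZ#1 libraries, 196, 222, 232 and 222 in siYAP/TAZ#2 libraries and 314, 310, 300 and 291 in siCo libraries. All knockdown libraries lay well below all siCo libraries. PSME3 fell, at −0.46 ± 0.057 (0.726-fold, adjusted p = 9.02e-06) with siYAP/TAZ#1 and −0.48 ± 0.057 (0.718-fold, adjusted p = 5.39e-06) with siYAP/TAZ#2, and with library size alone was at −0.29 in both comparisons. On log2(TPM + 1) its changes were 0.00 and −0.03. After TMM on TPM they were −0.35 (limma, adjusted p = 0.0132) and −0.46 (adjusted p = 0.00209). PSME3 overlaps BECN1 on the other strand.

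PSME1 (ENSG00000092010.15, GRCh38 chr14:24136158-24138967, plus strand) was at 43.9, 46.1, 41.8 and 44.8 TMM-scaled CPM in siYAP/TAZ#1 libraries, 39.7, 40.0, 44.3 and 40.6 in siYAP/TAZ#2 libraries and 37.7, 38.8, 39.3 and 36.6 in siCo libraries. Every knockdown library lay above every siCo library, though narrowly. PSME1 rose by 0.21 ± 0.058 (adjusted p = 0.00842) with siYAP/TAZ#1, and its change of 0.11 ± 0.058 with siYAP/TAZ#2 did not pass (adjusted p = 0.146). The change with siYAP/TAZ#2 was called with library size alone, at 0.30 (adjusted p = 0.00154), with protein-coding genes alone, and without siYAP/TAZ#2 replicate 1, at 0.13 (adjusted p = 0.0475). PSME2, its partner subunit, did not pass, at 0.10 (adjusted p = 0.343) and −0.04 (adjusted p = 0.732). The ratio of PSME1 to PSME3 TPM was 44.8 to 55.2% in siYAP/TAZ#1 libraries, 41.4 to 53.4% in siYAP/TAZ#2 libraries and 30.6 to 34.9% in siCo libraries, without overlap between knockdown and control. PSME4 fell, at −0.25 (adjusted p = 0.0452) with siYAP/TAZ#1, which held in 5 of 12 fits leaving out 1 library, and was at −0.11 (adjusted p = 0.366) with siYAP/TAZ#2.

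Compared directly, siYAP/TAZ#1 against siYAP/TAZ#2, 3 of the 41 genes differed: PSMD10 was higher, and PSMB2 and PSMD5 were lower, with siYAP/TAZ#1, where 8.20% of all genes were lower and 6.92% higher. PSMD10 differed by 0.82 ± 0.090 (adjusted p = 6.31e-06), held in all 12 fits leaving out 1 library, and by 0.80 with library size alone and 0.68 on log2(TPM + 1), where it was not called. PSMD5 differed by −0.22 ± 0.067 (adjusted p = 0.0307), which held in 6 of those 12 fits. PSMB2, at −0.40, held in all of them. Without siYAP/TAZ#2 replicate 1, 7 genes were lower and 2 higher with siYAP/TAZ#1, where 12.8% and 10.3% of all genes were. The added genes were PSMA2, PSMA5, PSMC2, PSMD7 and PSME4, lower, and PSMD9, higher. The siYAP/TAZ#1 libraries all lay below the siYAP/TAZ#2 libraries for 1 gene and above for 2, PSMD11 and PSMD10, where 9.31% and 8.91% of all genes did so. With counts divided by library size 1 gene was lower and 1 higher, where 7.62% and 5.88% of all genes were. On log2(TPM + 1) 0 genes differed in either direction, where 0.412% were lower and 0.227% higher, and after TMM on TPM 1 was lower and 1 higher, where 4.20% and 4.36% were. In TPM the libraries of the combinations were separate for 0 of 41 genes, where 2.05% of all genes lay below and 1.40% above. PSMB8 did not differ beyond its error, at −0.04 ± 0.090 (adjusted p = 0.862).

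Genes that act with the proteasome were described by lists. Of 9 genes for 20S assembly and inhibition, 2 fell and 1 rose with siYAP/TAZ#1 and 4 fell with siYAP/TAZ#2, with medians of −0.11 and −0.21. PSMG3, a chaperone of the alpha ring, was at 23.5, 24.4, 22.5 and 20.4 TMM-scaled CPM in siYAP/TAZ#1 libraries, 27.5, 23.5, 23.3 and 22.2 in siYAP/TAZ#2 libraries and 33.5, 35.6, 33.6 and 34.4 in siCo libraries. It fell, at −0.59 ± 0.076 (adjusted p = 1.32e-05) and −0.51 ± 0.076 (adjusted p = 5.85e-05), and with library size alone was at −0.42 and −0.32. PSMF1, which encodes an inhibitor of the core, fell, at −0.31 (adjusted p = 1.51e-04) and −0.17 (adjusted p = 0.0119), but was at 0.28 and 0.37 on log2(TPM + 1) and at 0.01 with library size alone with siYAP/TAZ#2.

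The list of other cap subunits and enzymes that dock on the cap had the lowest medians of the lists described. Of its 12 genes 9 fell and 1 rose with siYAP/TAZ#1 and 10 fell with siYAP/TAZ#2, with medians of −0.44 and −0.37. With library size alone 7 fell and 1 rose with siYAP/TAZ#1, where 8.83% and 27.2% of all genes did so, and 5 fell with siYAP/TAZ#2, where 9.44% did, and on log2(TPM + 1) the medians were −0.02 and 0.08 with no call in either direction. UBE3C, a ubiquitin ligase bound to the cap, fell, at −0.58 ± 0.052 (adjusted p = 2.89e-07) and −0.61 ± 0.052 (adjusted p = 1.52e-07). UBE3A, the ligase lost in Angelman syndrome, fell, at −0.73 ± 0.053 (adjusted p = 2.53e-08) and −0.50 ± 0.052 (adjusted p = 1.26e-06). RAD23B, a shuttle for ubiquitin-tagged substrates, fell, at −0.41 and −0.44, and ADRM1, a ubiquitin receptor of the cap, at −0.51 and −0.41, although siYAP/TAZ#2 replicate 1 at 234 TMM-scaled CPM lay within the siCo range of 217 to 252.

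NFE2L1 is the factor that drives proteasome genes when the proteasome is inhibited. Of 11 genes of that pathway, 4 fell and 2 rose with siYAP/TAZ#1 and 6 fell with siYAP/TAZ#2, with medians of −0.10 and −0.20. NFE2L1 itself was at −0.09 (adjusted p = 0.278) with siYAP/TAZ#1 and fell, at −0.21 (adjusted p = 0.0111) with siYAP/TAZ#2, and was at 0.09 and −0.02 with library size alone. NFE2L3, a related factor, fell, at −0.83 ± 0.13 (adjusted p = 1.01e-04) and −0.85 ± 0.13 (adjusted p = 7.39e-05). MAFK, a partner of these factors, fell, at −0.73 and −1.11, and MAFF, another, at −0.47 and −1.12, the −0.47 being called in 4 of 12 fits leaving out 1 library. Among 10 ubiquitin and ubiquitin-activating genes, 1 fell with siYAP/TAZ#1 and 2 with siYAP/TAZ#2. UBE2K, a ubiquitin-conjugating enzyme named here after its values were seen, was at 52.7, 46.8, 47.4 and 53.3 TMM-scaled CPM in siYAP/TAZ#1 libraries, 15.6, 18.6, 19.4 and 17.8 in siYAP/TAZ#2 libraries and 48.4, 46.5, 51.3 and 53.9 in siCo libraries. UBE2K was low in siYAP/TAZ#2 libraries alone, with a change of −1.49 ± 0.078 (adjusted p = 7.10e-10).

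Of 10 genes that induce the immunoproteasome, 3 fell and 2 rose with siYAP/TAZ#1, where 18.5% and 16.4% of all genes did so, and 3 fell and 3 rose with siYAP/TAZ#2, where 19.2% and 19% did so. Their medians were −0.01 and −0.02, beside 0.02 for all genes. IRF9, the DNA-binding subunit of the interferon-activated complex, was at 21.4, 16.8, 18.8 and 21.6 TMM-scaled CPM in siYAP/TAZ#1 libraries, 16.9, 19.6, 15.8 and 17.6 in siYAP/TAZ#2 libraries and 7.25, 7.70, 6.15 and 7.31 in siCo libraries. All knockdown libraries lay far above the highest siCo library, and IRF9 rose by 1.46 ± 0.10 (adjusted p = 1.81e-08) and 1.29 ± 0.10 (adjusted p = 6.05e-08). NLRC5, a transactivator of MHC class I and PSMB9, rose by 0.45 ± 0.068 (adjusted p = 7.52e-05) and 0.37 ± 0.068 (adjusted p = 3.39e-04). Both kept their direction with library size alone and on log2(TPM + 1).

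STAT2, a partner of IRF9, differed between the combinations. It was at 19.3, 17.9, 18.3 and 21.7 TMM-scaled CPM in siYAP/TAZ#1 libraries, 36.7, 39.3, 39.1 and 45.7 in siYAP/TAZ#2 libraries and 26.4, 27.2, 25.3 and 27.5 in siCo libraries. The 3 groups did not overlap, with a change of −0.46 ± 0.080 (adjusted p = 2.53e-04) with siYAP/TAZ#1, although it was at 0.27 on log2(TPM + 1), and of 0.60 ± 0.078 (adjusted p = 1.53e-05) with siYAP/TAZ#2. IRF1, a direct activator of PSMB8 and PSMB9 in interferon-treated cells, was at 0.01 (adjusted p = 0.927) and fell, at −0.32 (adjusted p = 0.00218), although it was at 0.08 on log2(TPM + 1) with siYAP/TAZ#2. Of the receptor chain and kinase genes, IFNGR2 fell, at −0.25 and −0.38 and JAK1 at −0.36 and −0.27, though on log2(TPM + 1) IFNGR2 was at 0.04 and 0.02 and JAK1 at −0.05 and 0.12. IFNGR1, JAK2, NFKB1 and RELA did not pass the test with either combination.

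Downstream of the immunoproteasome, 6 of 14 genes of MHC class I peptide supply and loading rose and 2 fell with siYAP/TAZ#1, and 4 rose and 2 fell with siYAP/TAZ#2, with medians of 0.18 and 0.07. The peptide-trimming enzymes rose: ERAP2 by 0.59 ± 0.12 (adjusted p = 0.00135) and 0.47 ± 0.12 (adjusted p = 0.00623), and ERAP1 by 0.38 ± 0.072 (adjusted p = 5.66e-04) and 0.37 ± 0.072 (adjusted p = 5.62e-04). The peptide transporter genes, which lie beside PSMB8 and PSMB9, went the other way. TAP2 was at 30.4, 28.4, 30.1 and 31.7 TMM-scaled CPM in siYAP/TAZ#1 libraries, 22.3, 20.3, 21.8 and 19.9 in siYAP/TAZ#2 libraries and 43.4, 39.8, 34.8 and 35.5 in siCo libraries, with changes of −0.35 ± 0.075 (adjusted p = 0.00167) and −0.87 ± 0.077 (adjusted p = 2.04e-07). TAP1, which overlaps PSMB9 on the other strand, fell, at −0.20 (adjusted p = 0.0172), a call lost without siYAP/TAZ#1 replicate 3, and was at −0.40 with siYAP/TAZ#2 (adjusted p = 5.52e-05), although it was at 0.16 and 0.02 on log2(TPM + 1).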

How the data were processed

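Bulk RNA from A549 cells was measured in 12 libraries, 4 each of siYAP/TAZ#1, siYAP/TAZ#2 and siCo, grouped by the labels. The deposited tables hold estimated counts per gene (expected counts, not whole) and TPM (scaled to transcript length and to the same total in every library), made by the authors. Trim Galore 0.6.4, kallisto 0.4.6 and the build GRCh38.p13 stand in the submitters' processing notes without a role or order. Whether counting used strand, and how transcripts were summed to genes, is not given in the sources used here. Identifiers were named from a separate list of gene names (60357 of 60617 matched) and, where it held none, from GENCODE release 29. Gene type and position came from GENCODE release 29 (58444 matched).

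After rounding, the estimated counts were fitted by edgeR 4.0.16 (R 4.3.3; TMM factors, which ran from 0.887 to 1.10, filterByExpr, group as the only term over all 12 libraries, quasi-likelihood F test, Benjamini-Hochberg adjustment over 21581 genes, adjusted p under 0.05). Libraries held 29617111 to 38264296 estimated counts. TPM served for levels between genes. Alternatives were library size alone, DESeq2 size factors, protein-coding genes alone, DESeq2 1.42.0, no filter on low counts, limma 3.58.1 on TPM with pseudocounts of 1 and 0.1, a replicate block, the compared groups alone and leaving out each library. The fit was tested on simulated data with the same spread for every gene and no general shift between groups. That test therefore cannot bear on the differences between scales. P-values set the difference between groups against the spread between these libraries.

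The proteasome genes, the gene lists and the tests were chosen with earlier results of these data known. From each other list up to 4 genes were named, those called in the same direction against siCo with both combinations and with the largest smaller change, and all 10 listed inducers of the immunoproteasome. A further gene is not reported here. UBE2K and NFE2L1 fall outside that rule and were named after their values were seen. Promoter sequences are from RefSeq (GRCh38.p14). No protein sequences were used here.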

Additional observations from a re-analysis of the deposited data

Results flagged for a closer look

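In 6 of the 123 groups of 4 libraries over the 41 proteasome genes, 1 library lay far from the other 3 on TMM-scaled CPM, about what chance gives (1 in 20 groups). Of these, 4 were in siYAP/TAZ#2: replicate 1 was low for PSMA4 at 79.5, for PSMD1 at 86.8 and for PSMD5 at 51.3, and replicate 2 was low for PSMB6 at 77.7. In siYAP/TAZ#1 replicate 4 was high for PSMD11 at 265, and in siCo replicate 3 stood apart for PSMC4 at 264.

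The 2 siRNA combinations differed from each other (edgeR's quasi-likelihood test of siYAP/TAZ#1 against siYAP/TAZ#2) for 3 proteasome genes. The log2 difference was 0.82 for PSMD10, −0.40 for PSMB2 and −0.22 for PSMD5. Among the other genes named it was −0.23 for UBE3A, 0.38 for MAFK, 0.66 for MAFF, 0.52 for TAP2, 0.21 for TAP1, 0.33 for IRF1 and −1.06 for STAT2. What sets the combinations apart for these genes was not tested.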

How the results depend on the processing

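On TMM-scaled counts the higher PSMB8 with both combinations, the lower PSME3 with both and the lower PSMD10 with siYAP/TAZ#2 held their direction and call in each count-based alternative tried. The counts of proteasome genes called depended on scaling most. With library size alone 3 were lower and 4 higher with siYAP/TAZ#1, 2 lower and 7 higher with siYAP/TAZ#2, and 1 lower between the combinations. On limma with either pseudocount 0 were lower and 1 higher with siYAP/TAZ#1, 0 lower with siYAP/TAZ#2, and 0 lower and 0 higher between the combinations. Limma after TMM on TPM, chosen after seeing the data, gave 11 lower with siYAP/TAZ#1 and 1 lower between the combinations. Without the filter on low counts 11 were lower with siYAP/TAZ#1 (8.07% of all genes), 1 higher with siYAP/TAZ#2 (9.55%) and 1 lower between the combinations (3.54%). The number higher with siYAP/TAZ#2 was 1 with DESeq2 size factors (18.6% of all genes), 1 with DESeq2 (16.5%), 1 with the compared groups alone (18.0%) and 4 with protein-coding genes alone (26.0%). Between the combinations DESeq2 called 2 higher (12.1%), and the compared groups alone gave 1 lower (6.79%). The cause was not tested. Leaving out each library in turn gave 11 to 24 lower and 2 to 3 higher with siYAP/TAZ#1, 13 to 18 lower and 1 to 3 higher with siYAP/TAZ#2, and 1 to 7 lower and 1 to 2 higher between the combinations. Of all genes these fits called 15.7 to 22.3% lower and 14.1 to 19.1% higher, 16.6 to 22.1% lower and 16.8 to 20.8% higher, and 5.83 to 12.8% lower and 5.33 to 10.3% higher. Libraries of the same replicate number were not alike throughout (correlation of deviations from the group means −0.153 to 0.208, against −0.283 to 0.204 for unlike numbers). The replicate 4 pairs were all positive, at 0.193, 0.148 and 0.208. A replicate block on counts gave 16 lower and 2 higher with siYAP/TAZ#1, 16 lower and 1 higher with siYAP/TAZ#2, and 2 lower and 1 higher between the combinations. Of all genes that fit called 18.8 and 16.5%, 19.6 and 18.7%, and 8.10 and 7.04%, in the same order. No block was fitted on TPM. The calls lost were PSMC5 and PSMD8 with siYAP/TAZ#1 and PSMA5 and PSMB2 with siYAP/TAZ#2. On log2(TPM + 1), with log2(TPM + 0.1) in parentheses where it differs, genes lower on counts came out at or above 0, and the cause was not tested. With siYAP/TAZ#1 these log2 changes were PSMA5 0.00, PSMA7 0.17, PSMB7 0.16, PSMC1 0.10, PSMD2 0.10, PSMD3 0.11, PSMD8 0.22, PSMD12 0.03, PSMD13 0.12, PSME3 0.00, PSMB2 0.07 (0.08), PSMC5 0.17 (0.18), PSMD1 0.27 (0.28), PSMD7 0.22 (0.23), PSMD11 0.13 (0.14), PSME4 0.16 (0.18), PSMF1 0.28 (0.29), TAP1 0.16 (0.18), STAT2 0.27 (0.30), IFNGR2 0.04 (0.05). With siYAP/TAZ#2 they were PSMA7 0.24, PSMB4 0.10, PSMB6 0.23, PSMB7 0.20, PSMC1 0.20, PSMD2 0.17, PSMD3 0.18, PSMD6 0.13, PSMD8 0.22, PSMD11 0.16, PSMD12 0.10, PSMD13 0.08, PSMD9 0.12, IRF1 0.08, IFNGR2 0.02, PSMA5 0.24 (0.26), PSMD5 0.25 (0.26), PSMF1 0.37 (0.38), TAP1 0.02 (0.03), JAK1 0.12 (0.13). With library size alone PSMD8 came to 0.03 with siYAP/TAZ#1, and PSMD5 to 0.00 and PSMF1 to 0.01 with siYAP/TAZ#2. Depth limits the precision most for PSMB9, with 143 to 239 estimated counts a library.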
